A study of Mus musculus with 7 samples.

Results

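The keratin genes were taken as all probes whose gene name in the array files is Krt followed by a number and nothing else, which gave 48 genes and 63 probes among the 34947 gene names on the array. Of these genes, 35 had 1 probe and 13 had more. The array files place 25 of the genes on chromosome 11 and 23 on chromosome 15. A gene's level is given here as the log2 of its processed intensity minus the 75th percentile of the array, so that 0 means as bright as that percentile. A probe counts as measured on an array where the scanner software marked it as well above background. The rule used no measured value.

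The series asked where the muscle-forming cells of the dermis come from. It put the RNA of 7 mouse cell populations on Agilent arrays with 1 colour, 1 array for each. The Sdc4+ arrays held Myf5SOR+ cells of the line B6.129S4-Myf5tm3(cre)Sor /J, which carries Cre knocked into the myogenic regulator Myf5, Cspg4- cells of the transgenic line B6,FVB-Tg(Cspg4-cre)1Akik/J, whose Cre follows the promoter of Cspg4 (NG2, a proteoglycan known from pericytes), and cells of Crl:CD1(ICR) mice, an outbred stock. The Sdc4- arrays held B195AP+ cells of the line B195AP-Cre (with its promoter left unnamed in the labels) and the Cspg4- and CD1 cells of the lines above. The seventh array held Cspg4+ cells of the Cspg4-cre line, with no Sdc4 label. Sdc4 is syndecan-4, a surface proteoglycan known from muscle stem cells. The labels describe lineage tracing and give no tissue, age or treatment. Per the series' design text, 8 to 10 animals stood behind each phenotype, and 10 to 200 ng of RNA was the input. With 1 array per population, the spread behind each p-value of the Sdc4 and Cspg4+ comparisons includes the difference between lines. When CD1 is set against the Cspg4- line, that spread is the difference between the Sdc4+ and Sdc4- arrays of a line.

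Keratins are the intermediate filament proteins of epithelial cells. A filament needs a type I and a type II partner, and each epithelium is known for its own pairs: Krt8 with Krt18 in simple epithelia, Krt5 with Krt14 in the basal layer of the epidermis, Krt1 with Krt10 above it, and a further set in the hair follicle, where inner root sheath and hair shaft each have their own genes. Mesenchymal cells such as fibroblasts build their filaments from vimentin in place of keratins. In the skin, keratin transcripts therefore mark epidermis, follicles, glands, Merkel cells and, in the body cavities, mesothelium.

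All 7 populations read as mesenchymal by these markers. Vim lay between 7.74 and 8.16 on every array, and the 8 dermal fibroblast markers were measured on all 7, with Dcn, the proteoglycan decorin, between 8.17 and 9.0. Of 22 genes of epithelial junctions and identity, 6 to 9 were measured on each of 6 arrays and 13 on the Cspg4+ array. All names gave 52.3% to 57.1% on the 6 arrays and 64.8% on Cspg4+. Epcam and Cdh1, which encode the adhesion molecules that define most epithelia, were measured on the Cspg4+ array alone (-2.14 and -3.33). The Cspg4+ array had the largest share of spots well above background, 57.2% against 45.9% to 50.8% on the others. Its median signal was also the highest, 21.5 against 9.14 to 16.2. Its 75th percentile, 177.6, lay within the range of the others, 128.9 to 242.2, so the array was not brighter at that level. The B195AP+ array carried streaks of low signal over 200 spot rows by 130 spot columns, and 11 of the 20 tested keratins have their probe there. Pax7 and Myf5, the regulators of muscle progenitors, were well above background on 0 arrays. Sdc4 itself was at 3.79, 6.28 and 6.35 on the Sdc4+ arrays and at 1.88, 5.10 and 5.27 on the Sdc4- arrays, so the groups overlapped, and its spot on the B195AP+ array lies among the streaks. The level of Cspg4, 1.14 on the array of that label, fell within the range of -0.58 to 1.90 of the others, so the Cspg4+ array did not stand out for the gene of its label.

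Keratins were less often measured than other genes on 6 of the arrays. On the Sdc4+ arrays 15, 19 and 20 of the 48 genes were well above background (Myf5SOR+, Cspg4- and CD1), and on the Sdc4- arrays 17, 19 and 20 (B195AP+, Cspg4- and CD1), shares of 31.2% to 41.7% where all names gave 52.3% to 57.1%. The Cspg4+ array stood apart with 33 of 48, or 68.8%, against 64.8% of all names. Over the whole family 12 genes were measured on every array, 16 on exactly 1 array (33.3%, against 10.3% of all names) and 11 on none (22.9%, against 29.8%). The 11 were Krt1, Krt9, Krt32, Krt34, Krt35, Krt40, Krt75, Krt76, Krt82, Krt83 and Krt84. Fewer keratin-bearing cells in a population and less keratin RNA per cell cannot be told apart in such pooled RNA.

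**Figure D1:**
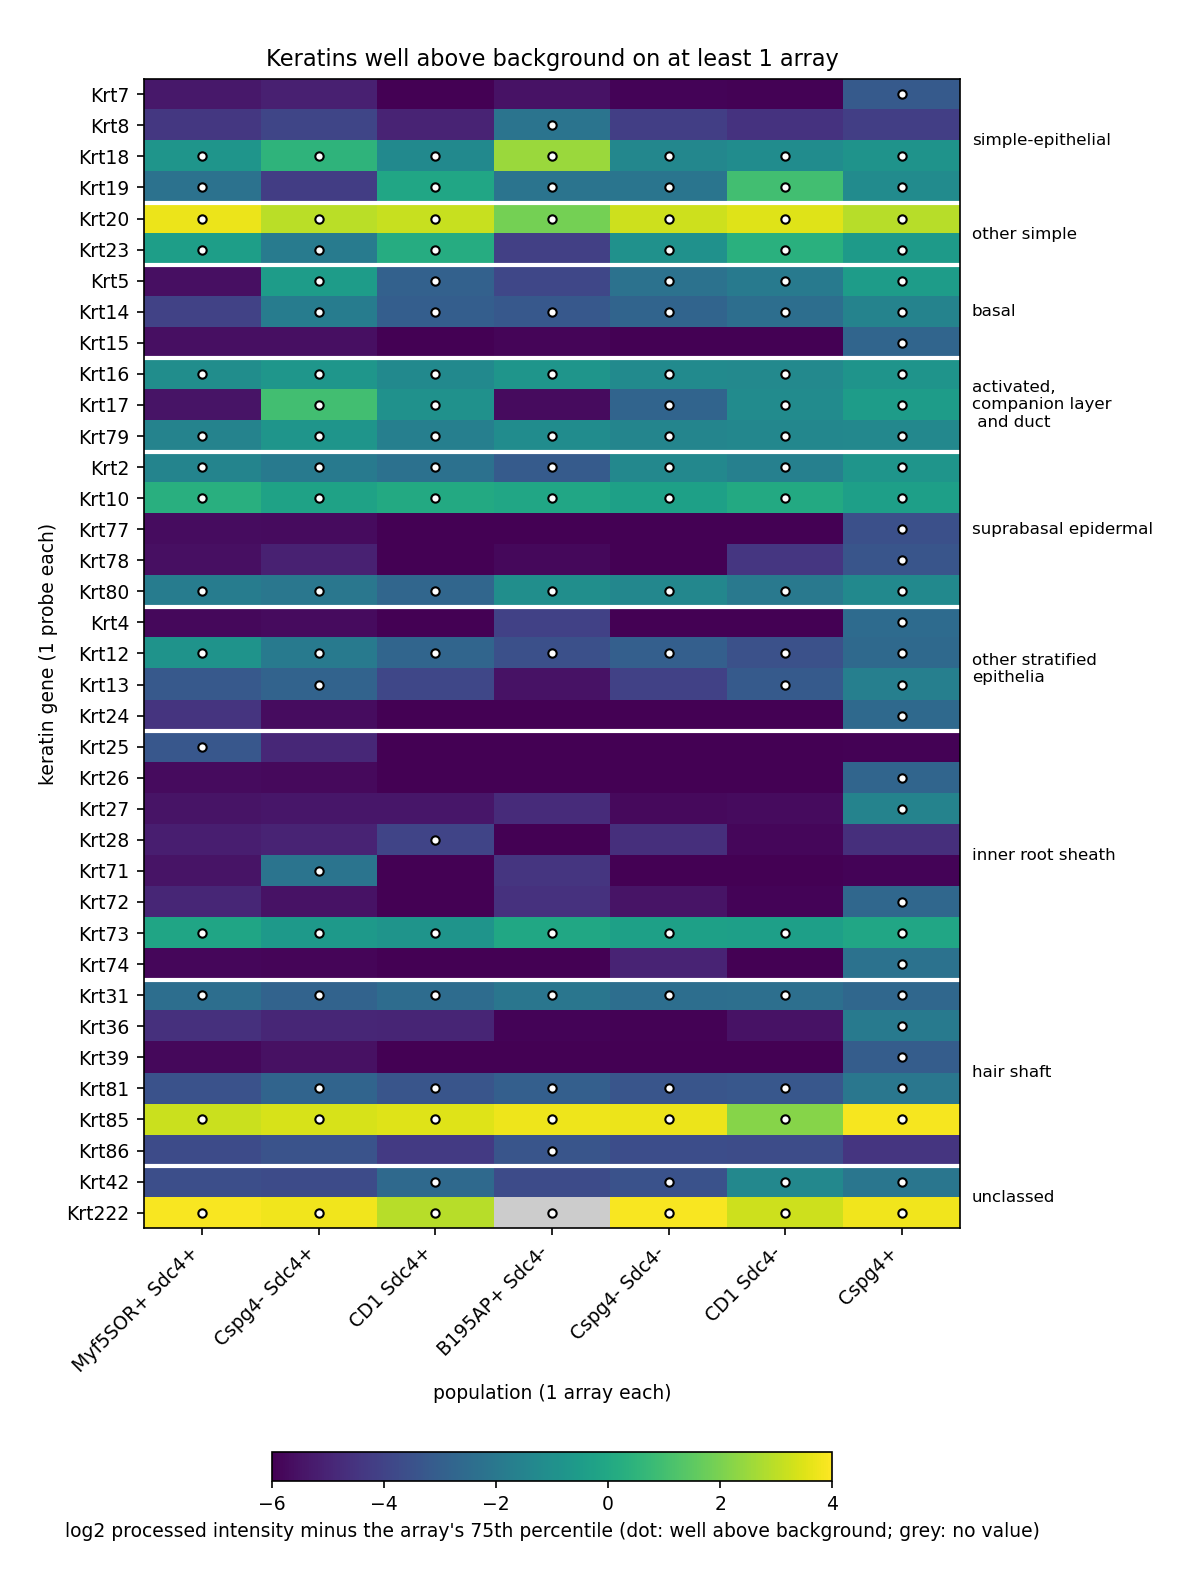
Level of the 37 keratin genes that were well above background on at least 1 array, by class (rows) and population (columns, 1 array each). Colour is log2 processed intensity minus the array's 75th percentile, a white dot marks well above background, and grey marks a spot dropped as an outlier; each gene is shown by 1 probe, and in 12 rows the only dot is in the Cspg4+ column.

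**Figure D2:**
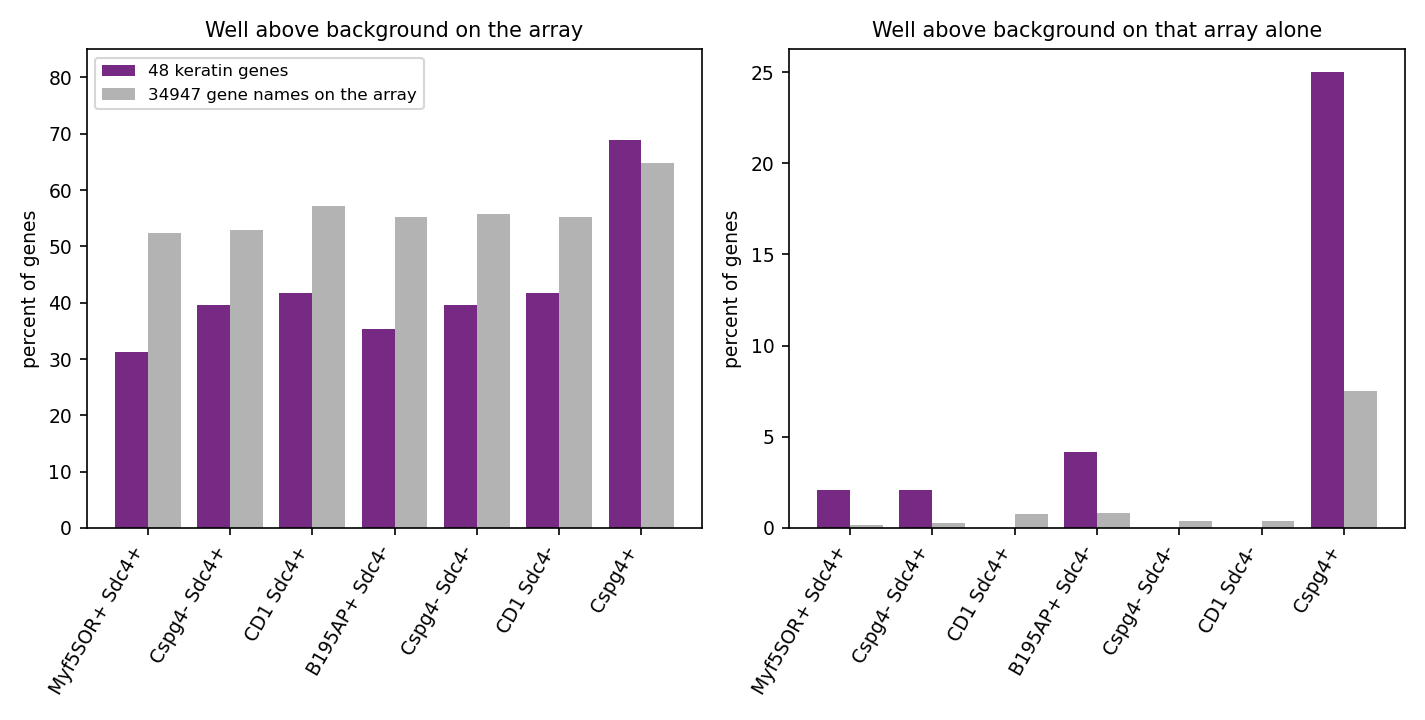
Percent of the 48 keratin genes and of all 34947 gene names that were well above background on each array (left) and on that array alone (right). The Cspg4+ array has the highest bars in both panels, with 68.8% of the keratins on the left and 25% on the right.

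The simple-epithelial keratins Krt8 and Krt18 shared their high array. Krt18, the type I partner, was measured everywhere, at -0.79 on Myf5SOR+, 0.50 on Cspg4- and -1.26 on CD1 among the Sdc4+ arrays, at 2.48 on B195AP+, -1.37 on Cspg4- and -1.13 on CD1 among the Sdc4- arrays, and at -0.85 on Cspg4+. This order of the arrays is kept from here on. The B195AP+ value was 3.95-fold above the next array, Cspg4- Sdc4+. Krt8, the type II partner, was measured on the B195AP+ array alone, at -2.17, with -4.38, -3.90 and -5.02 on the Sdc4+ arrays, -4.15 and -4.53 on the other Sdc4- arrays and -4.16 on Cspg4+. That is at least 2.7-fold above every other array, counting each dim array at its lowest measured level. A second Krt8 probe was not well above background on any array, but it too was brightest on B195AP+ (-3.43, with -4.43 to -6.23 elsewhere). None of these 3 probes lies in the streaked region. In the files' mm9 build the measured probes are at chr15:101862341-101862400 for Krt18 and chr15:101827138-101827197 for Krt8. Of the 37 keratins measured somewhere, Krt8 and Krt18 were the 2 that stood at least 2-fold above all other arrays on B195AP+, where 1.28% of all measured names did so.

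The genes lie close together on chromosome 15, with 2 predicted genes, Gm36026 and Gm41404, between them in the RefSeq table. Krt18 is a type I gene that sits beside the type II cluster. The 250 bases before each start are shown because the pair shared its high array (RefSeq, GRCm38.p6, chr15:102004343-102004592 on the minus strand for Krt8 and chr15:102027966-102028215 on the plus strand for Krt18).
Krt8: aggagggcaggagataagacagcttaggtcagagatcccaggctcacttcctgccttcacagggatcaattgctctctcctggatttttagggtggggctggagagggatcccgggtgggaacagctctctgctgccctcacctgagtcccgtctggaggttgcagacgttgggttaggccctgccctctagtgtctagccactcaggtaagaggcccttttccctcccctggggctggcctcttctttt
Krt18: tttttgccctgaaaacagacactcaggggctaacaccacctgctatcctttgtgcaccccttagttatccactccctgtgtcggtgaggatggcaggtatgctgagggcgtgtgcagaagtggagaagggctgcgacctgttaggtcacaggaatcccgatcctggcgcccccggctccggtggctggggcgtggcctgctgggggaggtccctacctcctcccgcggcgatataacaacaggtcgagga
Both strands were searched for 4 motifs. These were the TATA box, searched as TATAAA, the GC box, searched as GGGCGG, the AP-1 motif of the Jun and Fos factors, searched as TGANTCA, and the CCAAT box, searched by its name. None of these letters occur in either window, so no base is in capitals. The Krt8 probe that stayed dim on all arrays reads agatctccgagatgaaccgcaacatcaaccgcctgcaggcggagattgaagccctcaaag.

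On the B195AP+ array Epcam was at -4.70 and Cdh1 at -5.88, both not well above background, and the Cdh1 spot lies among the streaks. Cldn4, a claudin of tight junctions, was measured there (-3.09) and on Cspg4+ (-2.64). Trp63, the p63 factor of basal epithelia, was measured on all arrays and highest there, at 2.71, with 1.90 to 2.31 elsewhere. In all, 9 of the 22 epithelial genes were measured on B195AP+, against 6 to 9 on the 5 other arrays outside Cspg4+. The summed level of that list was 53.8 on B195AP+ and 30 to 63.7 on the other arrays, in units of each array's 75th percentile. Among the other intermediate filament genes, Nefl (neurofilament light chain) was at -0.37 on B195AP+ and at -2.61 to -4.23 elsewhere, and Nes (nestin) at 2.91 and at -0.25 to 1.41 elsewhere. The Nes spot lies in the streaked region and the Nefl spot does not. The part of any other cell type in the Krt8 and Krt18 values was not tested.

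Krt19 and Krt7, the other simple-epithelial keratins, had different high arrays. Krt19, a type I keratin of ducts, mesothelium and the follicle bulge, was at -2.24, -4.17 and -0.07 on the Sdc4+ arrays, at -2.16, -2.13 and 0.97 on the Sdc4- arrays and at -1.19 on Cspg4+. Both CD1 arrays were the highest of the 7 (probe at mm9 chr11:100002392-100002451), CD1 Sdc4- by 2.05-fold over CD1 Sdc4+, and Cspg4- Sdc4+ was the 1 array where it was not measured. Krt7, a type II keratin of glands and ducts, was measured on Cspg4+ alone, at -3.17, with -5.14 to -6.06 elsewhere. Krt20 and Krt23, also keratins of simple epithelia, were measured on 7 and 6 arrays. Krt20 stayed between 2.93 and 3.69 except on B195AP+, at 1.91. Krt23 was at -0.38, -1.83 and 0.20 on the Sdc4+ arrays, at -4.09, -0.94 and 0.35 on the Sdc4- arrays and at -0.57 on Cspg4+. Its lowest value, on B195AP+, is a spot inside the streaked region.

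The basal keratins Krt5 and Krt14 and the activated-epidermis keratin Krt17 had the same 2 arrays on top, Cspg4- Sdc4+ and Cspg4+. Krt5 was at -5.59, -0.49 and -2.90 on the Sdc4+ arrays, at -3.88, -2.23 and -1.89 on the Sdc4- arrays and at -0.48 on Cspg4+. It was high on Cspg4- Sdc4+ and Cspg4+, intermediate on the CD1 and Cspg4- Sdc4- arrays, and not measured on Myf5SOR+ and B195AP+. Krt14 was at -4.01, -1.82 and -3.03, then -3.26, -2.78 and -2.40, and -1.54 on Cspg4+, with the same 2 arrays on top. Krt17, a type I keratin of the follicle and of wounded or hyperproliferative epidermis, had the widest range of the family, at -5.48, 0.99 and -0.95, then -5.71, -2.77 and -1.17, and -0.49 on Cspg4+. On Cspg4- Sdc4+ it stood 2.8-fold above the next array, Cspg4+. The third basal keratin, Krt15, known from follicle stem cells, was measured on Cspg4+ alone, at -2.75 (-5.59 to -6.39 elsewhere). All 4 probes (in mm9 chr15:101537514-101537573 for Krt5 and chr11:100117535-100117594 for Krt17) lie in the streaked region, so the B195AP+ values of these genes are uncertain.

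A second Krt5 probe, outside that region, was measured on Cspg4+ alone, at -2.82, with -4.26 on Cspg4- Sdc4+ as the next value and -4.72 to -5.81 on the others. Krt16, the usual partner of Krt6 in activated epidermis, and Krt79, a keratin of the sebaceous duct, behaved otherwise. Krt16 stayed between -1.29 and -0.74 and Krt79 between -1.67 and -0.80 on the 7 arrays. Krt75 of the companion layer was not measured on any array.

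Few genes of desmosomes and epidermal differentiation had the same 2 arrays on top as Krt5, Krt14 and Krt17. They were 2 of the 10 fitted desmosome genes (Pkp1 and Trim29), 1 of 9 epithelial genes (Perp) and 1 of 10 cornified envelope genes (Sprr1a). Perp, a desmosome-associated membrane protein whose probe lies outside the streaked region, was at -5.53, 0.36 and -1.13 on the Sdc4+ arrays, at -2.96, -3.00 and -1.11 on the Sdc4- arrays and at -0.99 on Cspg4+. Pkp1, the desmosomal plaque protein plakophilin 1, was at -4.73, -0.80 and -2.56, then -4.66, -1.87 and -2.34, and -1.21 on Cspg4+. Trim29, a keratin-binding protein, was measured on 3 arrays, at -1.16 on Cspg4- Sdc4+, -3.37 on CD1 Sdc4+ and -2.46 on Cspg4+. Dmkn, an epidermal secreted protein, lay between -0.93 and 0.57 on 5 arrays and at -2.15 on Myf5SOR+, and was not measured on B195AP+. Evpl, the envelope protein envoplakin, was at 1.19 on Cspg4- Sdc4+ and at its lowest value, -2.67, on Cspg4+. Of 17 genes of desmosomes and keratin linkers 7 to 11 were measured per array, and Jup, Dsg1a, Dsg3, Dsc1 and Dsc3 were so on 0. Of the list's 10 genes in the fits described below 0 were called in any, and likewise 0 of 9 epithelial, 0 of 10 cornified envelope and 0 of 11 other intermediate filament genes. The part of keratinocytes in the keratin values was not tested.

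**Figure D3:**
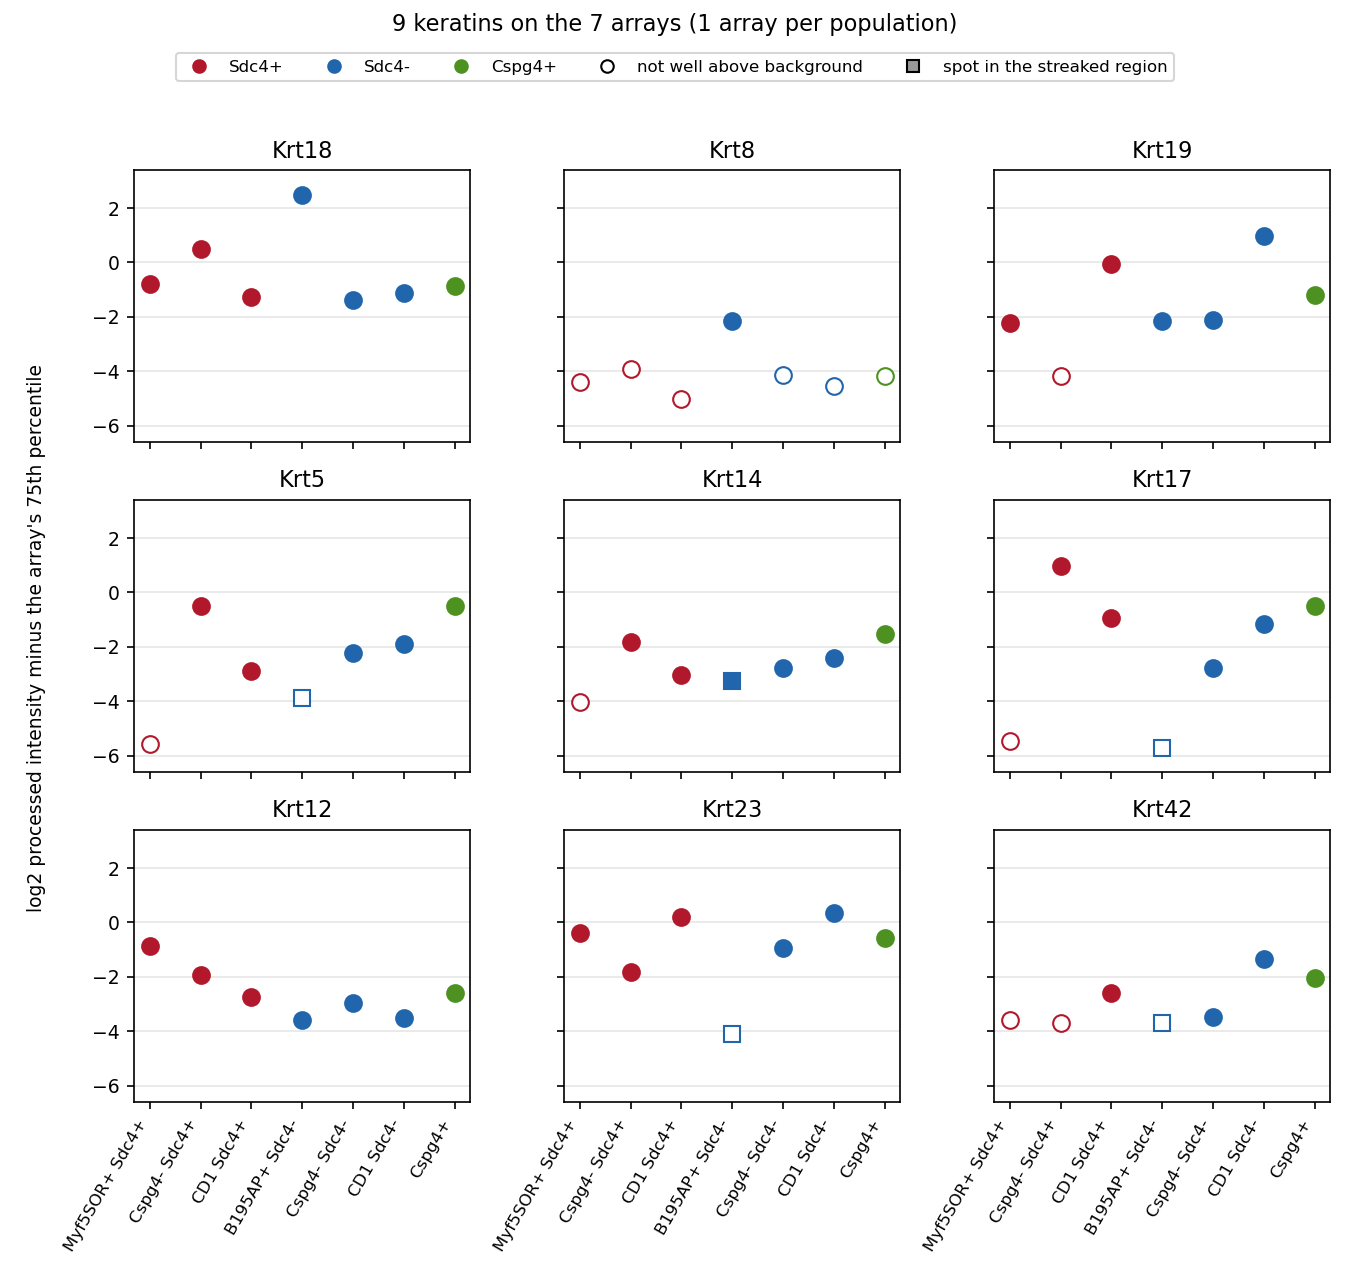
Level of 9 keratins on the 7 arrays, 1 point per array, coloured by group (log2 processed intensity minus the array's 75th percentile). Open symbols were not well above background and squares are spots in the streaked region of the B195AP+ array; Krt18 and Krt8 peak on B195AP+, Krt19 on the CD1 arrays, and Krt5, Krt14 and Krt17 on Cspg4- Sdc4+ and Cspg4+.

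Of the 7 suprabasal keratins 3 were measured on every array, Krt10, Krt2 and Krt80. Krt10, the type I keratin of the differentiating epidermis, was at 0.31, -0.25 and 0.06 on the Sdc4+ arrays, at -0.09, -0.31 and 0.09 on the Sdc4- arrays and at -0.36 on Cspg4+. Its type II partner Krt1 was not well above background on any array (-5.57 to -6.28). A second Krt10 probe was measured on 3 arrays, both CD1 arrays and Cspg4+, at -3.38, -3.22 and -2.99. Krt2, of the upper epidermis, was at -1.49, -1.91 and -2.26, then -3.11, -1.32 and -1.64, and -0.78 on Cspg4+, while its other probe was measured on 0 arrays. Krt80, which is broadly found in stratified epithelia, lay between -2.69 and -1.06. Krt77 and Krt78 were measured on Cspg4+ alone and Krt9, the keratin of palms and soles, on none. Of the 17 cornified envelope genes 8 to 12 were measured per array. Lor, which encodes the main envelope protein loricrin, was measured on CD1 Sdc4+ and B195AP+ (-3.21 and -2.84), and Flg (filaggrin) on Cspg4+ alone (-2.04).

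Among the keratins of other stratified epithelia, Krt12, known as the keratin of the corneal epithelium, was measured on all 7 arrays, at -0.87, -1.92 and -2.75 on the Sdc4+ arrays, at -3.57, -2.96 and -3.51 on the Sdc4- arrays and at -2.59 on Cspg4+. All 3 Sdc4+ values lay above all 3 Sdc4- values. The measured probe lies at mm9 chr11:99276980-99277039, and a second probe was measured on 0 arrays. Myf5SOR+ stood 2.07-fold above the next array, Cspg4- Sdc4+. Krt13, the type I keratin of the oral and oesophageal lining, was measured on 3 arrays, at -2.80 on Cspg4- Sdc4+, -3.17 on CD1 Sdc4- and -1.67 on Cspg4+. A second Krt13 probe was measured on Cspg4+ alone, at -3.76. Its partner Krt4 and the related Krt24 were also measured on Cspg4+ alone, at -2.52 and -2.60, and Krt76 on none.

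The hair follicle keratins were mostly dim. All 8 inner root sheath genes were measured somewhere, but 1 of them, Krt73, on every array, between -0.81 and -0.06. Krt26, Krt27, Krt72 and Krt74 were measured on Cspg4+ alone, at -2.74, -1.52, -2.65 and -2.24. Krt25 was measured on Myf5SOR+ alone (-3.28) and Krt71 on Cspg4- Sdc4+ alone (-2.14, at least 2.81-fold above the other arrays). Krt28 had 1 probe measured on CD1 Sdc4+ alone (-3.94) and another on Cspg4+ alone (-3.65). Of the 13 hair shaft genes 6 were measured: Krt31, Krt81 and Krt85 on 6 or 7 arrays, Krt36 and Krt39 on Cspg4+ alone (-1.86 and -3.07) and Krt86 on B195AP+ alone (-3.35). The Krt86 value on Cspg4- Sdc4+ was close, at -3.43, but not well above background. Krt31 stayed between -2.83 and -2.09. Of 13 other follicle genes, among them Tchh (trichohyalin, between -1.04 and 0.92), 6 to 8 were measured per array, and Foxn1, Hoxc13, Lhx2, Lgr5 and Padi3 on 0. Tchhl1, a relative of trichohyalin, was measured on the 3 Sdc4+ arrays, at -2.69, -2.28 and -3.28, and lay between -5.71 and -5.92 elsewhere.

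The promoter windows of the keratins were searched for the same motifs by class. Promoters of 34 keratin genes were found in the RefSeq table, 35 in all, and 16 of the 35, or 45.7%, hold TATAAA on either strand within the 250 bases before the start, as do 12.4% of all 32851 promoters. By class, 7 of 7 inner root sheath genes and 5 of 8 hair shaft genes hold it, as do 0 of 3 simple-epithelial and 0 of 2 basal genes. The search was chosen with the expression values known and is a description without a test. In 6 of the 7 inner root sheath genes the match lies on the gene's strand within 40 bases of the start, and in Krt72 it lies on the other strand 203 bases before it. The GC box letters were in 2 keratin promoters (5.71%, against 32.7% of all), the AP-1 letters in 2 (5.71%, against 6.75%) and those of the CCAAT box in 13 (37.1%, against 33.8%). Shown are the inner root sheath genes measured on 1 Sdc4+ array or on all arrays, and Krt12, with the letters of the TATA box and the CCAAT box in capitals (RefSeq, GRCm38.p6, minus strand, Krt25 chr11:99322952-99323201, Krt71 chr15:101743098-101743347, Krt73 chr15:101802361-101802610, Krt12 chr11:99422260-99422509).
Krt25: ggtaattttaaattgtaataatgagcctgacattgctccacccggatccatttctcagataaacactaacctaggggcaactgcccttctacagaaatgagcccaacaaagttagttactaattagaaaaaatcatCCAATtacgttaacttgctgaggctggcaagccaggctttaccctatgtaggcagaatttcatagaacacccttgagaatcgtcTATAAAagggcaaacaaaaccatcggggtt
Krt71: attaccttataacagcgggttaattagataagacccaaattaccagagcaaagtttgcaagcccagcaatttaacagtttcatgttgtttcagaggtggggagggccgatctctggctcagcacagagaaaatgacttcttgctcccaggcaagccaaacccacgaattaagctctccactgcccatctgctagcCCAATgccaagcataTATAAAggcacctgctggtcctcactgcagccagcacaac
Krt73: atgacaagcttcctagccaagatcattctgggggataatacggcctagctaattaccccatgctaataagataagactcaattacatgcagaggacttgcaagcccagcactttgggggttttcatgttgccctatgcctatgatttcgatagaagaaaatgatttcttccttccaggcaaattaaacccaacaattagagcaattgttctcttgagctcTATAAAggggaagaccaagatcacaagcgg
Krt12: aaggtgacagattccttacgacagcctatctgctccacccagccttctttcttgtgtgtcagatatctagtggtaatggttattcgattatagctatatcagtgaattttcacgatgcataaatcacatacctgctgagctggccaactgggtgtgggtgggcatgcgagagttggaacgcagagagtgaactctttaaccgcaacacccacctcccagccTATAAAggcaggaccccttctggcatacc

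Probes of 1 gene lay furthest apart for Krt222 and Krt85, and those of Krt2, Krt5, Krt10, Krt12, Krt13 and Krt42 also disagreed. Krt222, a keratin-like gene without a class, was at 3.91, 3.79 and 2.92 on the Sdc4+ arrays, at 3.91 and 3.24 on the Cspg4- and CD1 Sdc4- arrays and at 3.77 on Cspg4+, and its B195AP+ spot was dropped as an outlier. Its second probe was measured on 0 arrays. The bright probe holds a run of 22 bases of alternating A and C, in capitals in the stretch of its bases 18 to 47, ttgtACACACACACACACACACACACccgg. Among all 55681 probes 103 hold at least 8 AC or GT units in a row. Of these 103, 100% were well above background on all 7 arrays, against 39.9% of all probes, and their median level was 4.62 against -4.03. The longest run shared with a probe of another gene was 23 bases, with Snap23.

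**Figure D4:**
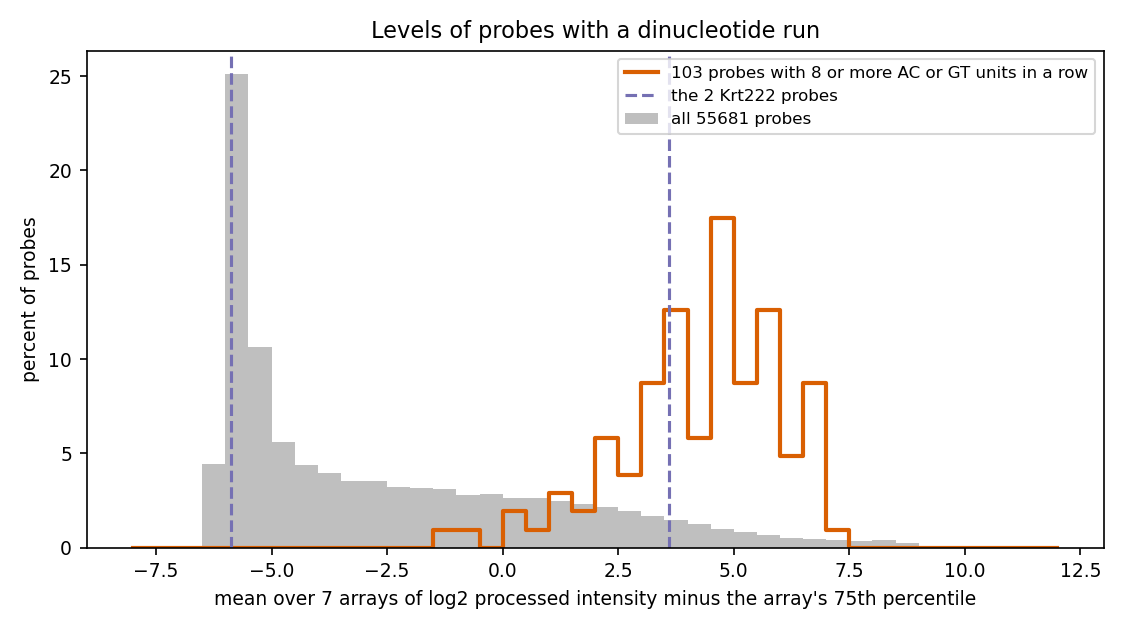
Distribution of the mean level of all 55681 probes (grey bars, percent of probes per bin) and of the 103 probes with a run of at least 8 AC or GT units (line), with both Krt222 probes as dashed lines. The probes with the run have a median of 4.62 and the set of all probes one of -4.03.

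Krt85, the type II keratin of the hair shaft, had 3 probes with 3 outcomes. The brightest, which has no position in the array files, was at 3.18, 3.41 and 3.51 on the Sdc4+ arrays, at 3.73, 3.70 and 2.19 on the Sdc4- arrays and at 3.88 on Cspg4+. A second was measured on all arrays, between 0.10 and 0.83, and the third on 0 arrays, although all carry the same gene name. The files place the second at mm9 chr15:101346117-101346176. They place the third elsewhere, at chr15:101261695-101261754, near the Krt83 probe at chr15:101263556-101263615. Krt35, the type I hair shaft keratin that pairs with Krt85, was measured on 0 arrays. Krt81 and Krt83 probes share 24 bases, so signal could be split between these related hair keratins. The Krt83 probe is named Krt87 in the RefSeq table by its accession. Whether the bright probes of Krt222, Krt85 and the other genes with unlike probes report those genes was not tested.

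The comparison of Sdc4+ with Sdc4- cells took the Sdc4 label over all lines, and 20 keratins entered the fit, those measured on at least 3 arrays. None passed the test: limma with Benjamini-Hochberg adjustment called 0 of the 20, as it called 0% of all 19761 genes (smallest adjusted p over all genes 0.245). At an unadjusted p under 0.05 stood 1 of the 20 keratins and 9.17% of all genes. That keratin was Krt12, whose mean was -1.85 ± 0.94 in Sdc4+ against -3.35 ± 0.34 in Sdc4- cells (SD, n = 3 per group). Its difference was 1.5 on the log2 scale with an SE of 0.48, and ran from 0.56 with normexp and 0.90 with line as a fixed block to 1.95 without CD1 Sdc4+. The limma adjusted p was 0.486 (0.203 to 0.84 under the alternatives), from an unadjusted 0.018. It was the 1 keratin whose groups did not overlap, where 16.5% of all genes had no overlap, 7.2% with Sdc4+ above and 9.26% with Sdc4+ below. Of the 20, 10 were higher and 10 lower in Sdc4+ cells, with a median of -0.01 beside -0.03 over all genes. The next smallest p among the keratins was that of Krt80, -2.18 ± 0.45 against -1.46 ± 0.46, or -0.72 on the log2 scale with an SE of 0.33 (limma adjusted p = 0.577).

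The SE was larger than the size of the difference for Krt2, Krt10, Krt16, Krt20, Krt42, Krt79, Krt81, Krt85 and Krt222. It was also larger for 6 of the keratins whose Sdc4 difference was recomputed under the alternatives. The log2 differences were 1.40 for Krt17 (SE 1.83), -1.05 for Krt19 (SE 1.24), -0.51 for Krt18 (SE 1.07), 0.89 for Krt23 (SE 1.14), -0.32 for Krt5 (SE 1.26) and -0.14 for Krt14 (SE 0.55). All had limma adjusted p-values between 0.816 and 0.952. The sign of 5 of these 6 turned under at least 1 alternative. Without the B195AP+ array, the Krt18 difference was 0.73 and that of Krt23 -0.37; without the Myf5SOR+ array, that of Krt5 was 0.97 and that of Krt14 0.39; without the Cspg4- Sdc4+ array, that of Krt17 was -0.00. The slide row cannot be told apart from the Sdc4 label, since the Sdc4+ arrays lay in row 1 and the others in row 2.

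Within a line the Sdc4 label was compared on 1 array a side, with no test. In the Cspg4- line 6 of the 20 keratins were at least 2-fold apart, where 8.45% of all genes were, 4.7% higher and 3.75% lower. Higher in the Sdc4+ cells were Krt17 by 3.76, Krt18 by 1.87 and Krt5 by 1.74 on the log2 scale, together with Krt12 and Krt13. Lower was Krt19, by at least 2.78-fold. In CD1 4 of 20 were so, where 4.4% of all genes were, 1.93% higher and 2.47% lower. Krt42 (-1.25), Krt19 (-1.04) and Krt5 (-1.01) were lower in the CD1 Sdc4+ cells, and the brightest Krt85 probe was higher (3.51 against 2.19). The second Krt85 probe ran the other way, at 0.10 on CD1 Sdc4+ and 0.83 on CD1 Sdc4-. Krt19 was thus lower in the Sdc4+ cells of both lines and Krt5 pointed in opposite directions. With normexp background correction 2 keratins passed in the Cspg4- line and 1 in CD1.

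The Cspg4+ array held the largest number of keratins found nowhere else. The 12 were Krt4, Krt7, Krt15, Krt24, Krt26, Krt27, Krt36, Krt39, Krt72, Krt74, Krt77 and Krt78, or 25% of the family, where 7.5% of all names were measured on that array alone. Krt8 and Krt86 were measured on B195AP+ alone (0.798% of all names were), Krt25 on Myf5SOR+ alone (0.149%) and Krt71 on Cspg4- Sdc4+ alone (0.252%). Of these, Krt86 was only 1.06-fold above the next array, Cspg4- Sdc4+, and Krt25 at least 1.25-fold. No keratin was measured on CD1 Sdc4+, Cspg4- Sdc4- or CD1 Sdc4- alone, where 0.781%, 0.406% and 0.401% of all names were. Against the mean of the other 6 arrays, each at its lowest measured level or its own, the largest were Krt27 at least 5.64-fold, Krt36 at least 4.44-fold and Krt74 at least 3.42-fold higher, and the smallest was Krt77 at least 1.37-fold. Of the 37 keratins measured somewhere, 6 (16.2%) stood at least 2-fold above every other array there (Krt4, Krt13, Krt24, Krt27, Krt36 and Krt74), as did 3.88% of all names. On Cspg4- Sdc4+ Krt17 and Krt71 did so (0.501% of all names), on Myf5SOR+ Krt12 (0.246%) and on CD1 Sdc4- Krt19 (0.632%). No keratin did on CD1 Sdc4+ or Cspg4- Sdc4-, where 0.447% and 0.246% of all names did. Epithelial markers were also measured in the largest number on Cspg4+: besides the 13 of 22 epithelial genes, 11 of 17 desmosome genes (7 to 9 elsewhere) and 12 of 17 cornified envelope genes (8 to 11 elsewhere). These counts lie near the 64.8% of all names measured on that array, so they are not particular to epithelial genes. Of 16 other intermediate filament genes 13 were measured there (8 to 12 elsewhere). Of 8 Merkel cell genes 1 to 3 were measured per array, and Atoh1, Isl1, Pou4f3 and Piezo2, among those that define the cell, were so on 0. Sox2, also of that list, was measured on B195AP+, Cspg4+ and CD1 Sdc4-, at -3.73, -3.06 and -2.74. Insm1 was measured on Cspg4+ and CD1 Sdc4-, Chga on Myf5SOR+ and CD1 Sdc4+, and Syp on all 7 arrays. The share of spots well above background and the median signal, both highest on the Cspg4+ array, stand beside these counts. Their part in the keratin counts, and that of epithelial cells, was not tested.

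In the fit, Cspg4+ was set against the mean of both other groups, with its lone array assumed to vary like theirs. Limma called 0 of 20 keratins and 0% of all genes, and 2 keratins and 5.72% of all genes had an unadjusted p under 0.05. These were Krt81, a type II hair shaft keratin at -2.02 on Cspg4+ and -3.20 ± 0.27 on the others (SD, n = 6), a difference of 1.19 (SE 0.33, limma adjusted p = 0.669), and Krt13, at -1.67 against -3.77 ± 0.98, a difference of 2.10 (SE 0.80, limma adjusted p = 0.822). Krt13 was measured on 2 of the other 6 arrays, and its B195AP+ spot lies among the streaks. Krt5 and Krt14 differed by 2.35 (SE 1.66) and 1.35 (SE 0.73), both with a limma adjusted p of 1.000. With normexp the differences shrank to 0.18 for Krt81, 0.52 for Krt13, 0.94 for Krt5 and 0.40 for Krt14, and with line as a fixed block that of Krt5 was 0.88. Higher were 15 of the 20, with a median of 0.49 beside 0.04 over all genes. The Cspg4+ value lay above all 6 others for 6 keratins (Krt2, Krt5, Krt13, Krt14, Krt81 and Krt85) where 15.1% of all genes did so, and below them for Krt10, where 10.6% did (25.7% either way). With only the 12 keratins measured on all arrays the median was 0.11. Without the filter on dim probes 11 of 48 keratins and 2952 of 34946 genes passed. The genes this adds were measured on fewer than 3 arrays, so their spread is largely that of dim spots.

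Against the Cspg4- Sdc4- cells of the same line, 1 array each and no test, 6 of 20 keratins were at least 2-fold higher in Cspg4+ and 0 lower, where 5.24% of all genes were apart, 3.46% higher and 1.78% lower. They were Krt13 (at least 4.75-fold), Krt17 (by 2.28 on the log2 scale), Krt5 (1.75), Krt81 (1.33), Krt14 and Krt42. With normexp background correction 1 passed, and 3 did so in the deposited values. This comparison and that within the Cspg4- line share the Cspg4- Sdc4- array.

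**Figure D5:**
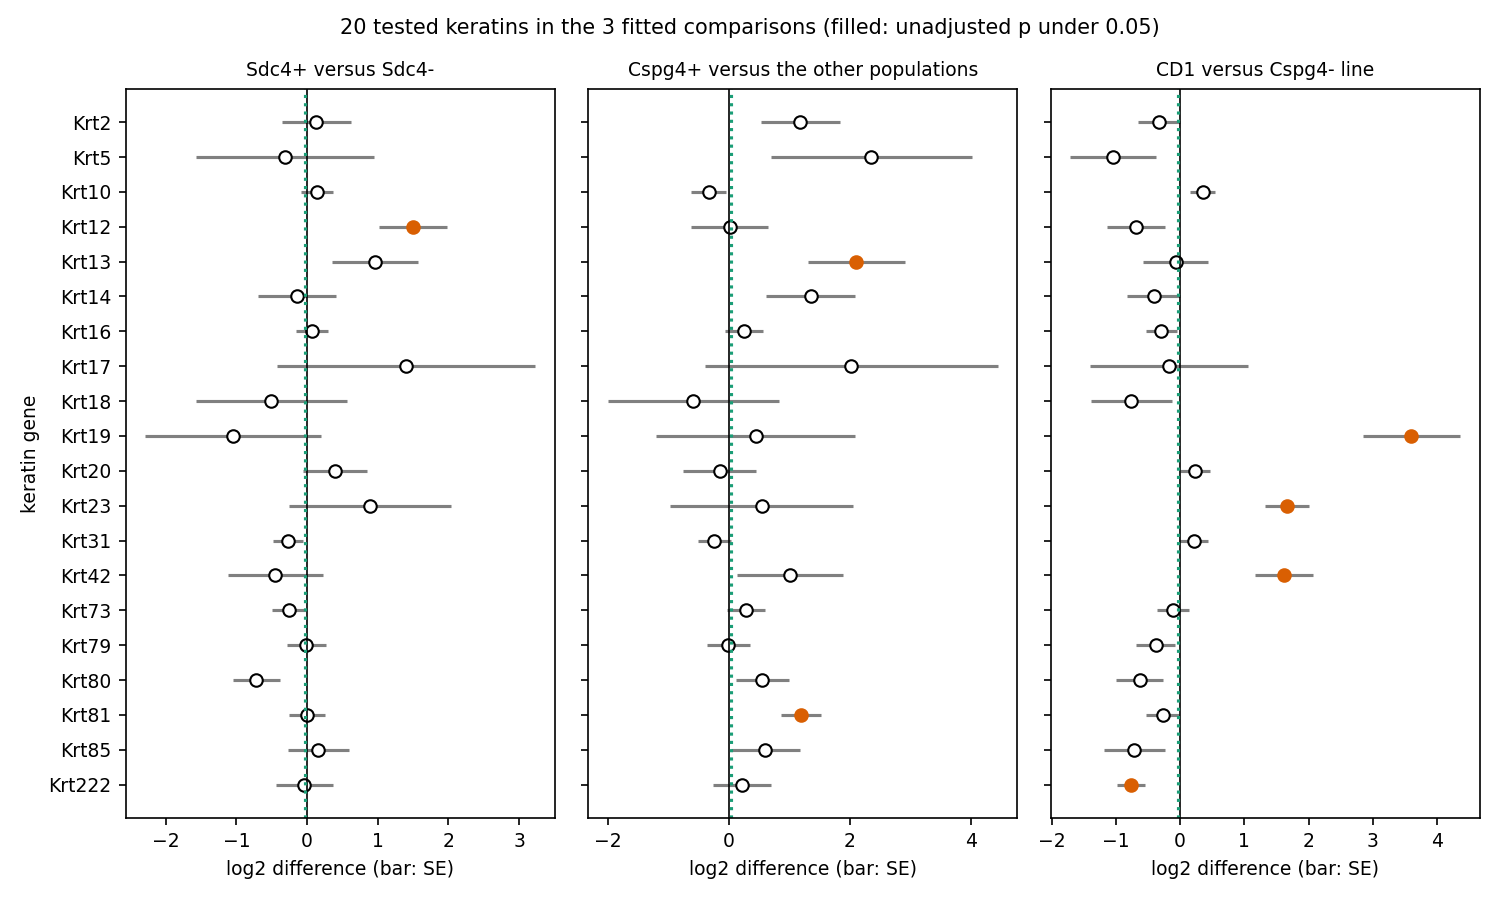
Log2 difference of the 20 tested keratins in the 3 fitted comparisons, with the SE as a bar (Sdc4+ minus Sdc4-, Cspg4+ minus the others, CD1 minus the Cspg4- line). Filled points have an unadjusted p under 0.05, 1, 2 and 4 of them, none of which passed after adjustment; the dotted line is the median of all genes.

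CD1 cells were set against cells of the Cspg4- line, 2 arrays each with both Sdc4 labels. The 2 arrays of a line are different cell fractions and not repeats. The spread behind these p-values is therefore the difference between the Sdc4 labels within a line. Limma called 108 genes, 0.547% of all, and 0 of the 20 keratins. At an unadjusted p under 0.05 stood 4 keratins and 12.5% of all genes. Krt19 was at -0.07 and 0.97 on the CD1 and at -4.17 and -2.13 on the Cspg4- arrays (Sdc4+, then Sdc4-), a fitted difference of 3.60 on the log2 scale with an SE of 0.76 and of 1.76 with normexp. It was measured on 1 of the 2 Cspg4- arrays, so the size rests in part on a dim spot. Its limma adjusted p was 0.181 (0.0654 to 0.53 under the alternatives), from an unadjusted 0.00567. Krt23 was at 0.20 and 0.35 against -1.83 and -0.94, a difference of 1.66 (SE 0.34, limma adjusted p = 0.173). Krt42, a type I keratin without a class here, was at -2.59 and -1.35 against -3.70 and -3.48, a difference of 1.62 (SE 0.45, limma adjusted p = 0.267) and of 0.49 with normexp. It too was dim on Cspg4- Sdc4+, and its second probe was measured on 0 arrays. Krt222 was lower in CD1 by -0.77 (SE 0.22, limma adjusted p = 0.268). In all 4 the pairs of arrays did not overlap, as in 6 of 20 keratins (4 with CD1 above, 2 below) and 46.5% of all genes (20.2% above, 26.2% below). The keratin median was -0.28 beside -0.04 over all genes.

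Of the mesothelial genes, Wt1 was also higher on both CD1 arrays than on both Cspg4- arrays, and Msln was not. Wt1, a transcription factor of mesothelium, was at -1.17 and -0.43 on the CD1 and at -5.70 and -3.48 on the Cspg4- arrays, and Msln (mesothelin) at -1.13 and 1.11 against -3.69 and -0.62. Both probes lie in the streaked region, which does not touch these 4 arrays. The summed level of the 6 mesothelial genes on the array other than Krt19 was 0.951 and 2.97 on the CD1 arrays and 0.145 to 0.806 on the others. Of these only Wt1 and Msln entered the fit, with differences of 3.79 and 2.15 (limma adjusted p = 0.171 and 0.543), and neither was called. Upk3b, Upk1b, Lrrn4 and Gpm6a, also of that list, were measured on 0 arrays. Krtdap, a secreted protein of differentiating keratinocytes, was at 0.72 and -0.05 on the CD1 and at -1.98 and -4.06 on the Cspg4- arrays. The part of mesothelial cells in the Krt19 values was not tested. Without either CD1 array the fit called 0 of all genes, and the Krt19 difference lay between 2.58 and 4.62 with each array left out in turn.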

How the data were processed

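RNA of 7 cell populations was hybridised to 7 single-colour arrays on 1 slide with 1 scan. Each deposited scanner file holds fluorescence intensity for every spot with the background already subtracted by Feature Extraction (version 11.5.1.1, per the file headers) and without normalization between arrays. The headers name mm9 as the build of the probe coordinates. A deposited table of log2 values, with column medians of 5.15 to 5.17, served as an alternative. The package lumi stands in the submitters' processing notes, and the centring of the table stays unknown.

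Control spots were left out, outlier spots set to missing, the log2 processed intensity taken minus each array's 75th percentile, and spots averaged per probe. Tests took probes that passed the scanner software's background test on 3 or more of the 7 arrays, and each gene took the one with the highest mean. Of 55681 probes 27656 matched the reference table by accession; of the 63 keratin probes 56 kept their symbol and 6 had no match. Differences were fitted in limma 3.58.1 (R 4.3.3) on 19761 genes with Benjamini-Hochberg adjustment at 0.05, checked on simulated data. Single arrays were compared without a test at 2-fold. A gene dim on 1 side is given as a bound against the lowest measured level of each dim array.

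Members, classes and lists were chosen with earlier results of these data known. All keratins measured on at least 3 arrays were named with values by rule; values of those on 1 array were added after they were seen. From each list came the genes of widest range; Epcam, Cdh1, Lor, Flg and Vim, which define cell types, and the genes at 0 arrays were added. Other lists (melanocyte, leukocyte, endothelial, muscle, mammary and sweat gland) gave 0 called genes in the 3 fits. Counts of keratins on 1 array alone, the AC run and the motifs were chosen after values were seen. Line as a block, other normalizations, filters and probe rules, the streaked region and each array left out were alternatives. The number of arrays limits the precision.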

Additional observations from a re-analysis of the deposited data

Results flagged for a closer look

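Krt5, the type II keratin of the basal epidermis, was picked out because the Sdc4 label went with opposite differences in the lines that had both fractions. Sdc4+ minus Sdc4- was -1.01 on the log2 scale in CD1 and 1.74 in the Cspg4- line, 1 array on each side. The difference between the lines was not tested, as no population has a second array. The second Krt5 probe was not well above background on any of these 4 arrays.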

How the results depend on the processing

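In all, 427 values were recomputed. Of the 268 for single keratins 17 changed sign. Another 56 kept their sign but moved by over 1.5 times, 23 of them among the 27 with normexp. Some keratin medians also changed sign, running from -0.15 to 0.11 for Sdc4+ against Sdc4- and from -0.55 to 0.01 for CD1. No keratin passed in the Sdc4 and CD1 comparisons under any alternative run. For Sdc4+ against Sdc4-, the Krt5 difference was 0.07 with normexp, 0.00 with line as a random block, 0.37 with line as a fixed block and -1.58 to 0.97 with each array left out. Krt14 gave 0.02, 0.00, 0.16 and -0.71 to 0.39 in the same order. Krt18 gave 0.15 with the random block, 0.87 with the fixed block and -1.19 to 0.73 with arrays left out. Krt23 gave -0.51 with the fixed block, -0.37 without the streaked region and -0.37 to 1.85 with arrays left out. Krt17 gave -0.00 to 3.24 with arrays left out. With the random block 3 genes were called there and 26 for Cspg4+. For Cspg4+ the deposited table gave 11, and no filter gave 2952 of 34946, with 11 of 48 keratins. The Cspg4+ median was 0.11 over keratins measured on all 7 arrays. For CD1 against the Cspg4- line 108 genes were called, 37 with normexp, 69 without a filter, 14 with the Sdc4 fraction as a covariate and 0 to 46 with arrays left out (0 without either CD1 array). Keratins at least 2-fold apart numbered 1 in CD1 with normexp, the deposited table or the filter of all 7 arrays, and 2 in the Cspg4- line with normexp or that filter, whose median was 0.34 with no filter. For Cspg4+ against Cspg4- Sdc4- they numbered 1 with normexp, 3 in the deposited table, 18 with no filter and 0 with the filter of all 7 arrays. The causes were not tested. The replicate numbers, all 1, pair no arrays, so the line, shared by both CD1 arrays and by the Cspg4- and Cspg4+ arrays, was the block. Dim genes have only bounds, and with line as a fixed block 1 degree of freedom is left.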
